A study of Rattus norvegicus with 9 samples.

Results

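The genes described here are the potassium, sodium, calcium and HCN channel genes of the rat array: those whose symbol in the platform's annotation begins with Kcn, Cacn, Scn or Hcn in the form used for channel subunits, each read from its probe set of highest mean log2 signal over the 9 arrays. There were 114 such genes of 14217 genes with 1 symbol, carried by 181 probe sets. Not all of them are gated by voltage: beside the voltage-gated alpha subunits and their auxiliary subunits, the symbols take in inwardly rectifying, tandem-pore-domain (K2P) and calcium-activated potassium channels. RNA of 3 kinds of retinal progenitor cells (RPCs) was hybridized to Affymetrix Rat Genome 230 2.0 arrays, 3 biological replicates each. P-RPC were the cells that papain freed from the neural retina of SD rats on postnatal day 1, with no sorting or culture step before the RNA described in the sources used here. rESC-RPC1 and rESC-RPC2 were both differentiated from DA8-16, a single embryonic stem cell line of DA rats, as floating aggregates with Matrigel and the Wnt inhibitor IWR-1e and later with serum, and both were harvested on day 16. Cells of rESC-RPC1 were plated on day 10 and put into N2 medium on day 14, while rESC-RPC2 stayed in suspension until day 14. Strain, tissue against culture and cell type cannot be told apart in a comparison with P-RPC, and medium and time of plating cannot be told apart between rESC-RPC1 and rESC-RPC2.

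Voltage-gated channels open when the membrane is depolarized. Sodium channels carry the upstroke of the action potential, potassium channels repolarize the membrane and set its firing pattern, and calcium channels couple depolarization to transmitter release and gene regulation. HCN channels open on hyperpolarization and, with the inward rectifiers and K2P channels, set the resting potential. In the retina, photoreceptors and bipolar cells signal with graded potentials, ganglion cells fire action potentials, and the potassium conductance of Muller glia lies mostly in inward rectifiers. Alpha subunits form the pore, and auxiliary subunits change its gating and its transport to the membrane.

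The labelled cell types were read against marker genes before the channels. All 8 tested genes of a photoreceptor list of 11 genes on the array reached the detection threshold on every P-RPC array, and the summed signal of the list was 22399 to 24173 there. On the rESC-RPC arrays the sum was 313.8 to 533.4, and Crx, Rcvrn, Gnat1, Sag and Pde6b lay under the threshold on every array. Rcvrn, Gnat1 and Guca1a did so in P-RPC as well. A list of 16 neuronal genes summed to 32832 to 39376 in P-RPC, to 25911 to 36427 in rESC-RPC1 and to 65505 to 71785 in rESC-RPC2. A list of 11 glial genes summed to 22839 to 26292, 41668 to 56989 and 36743 to 38241 in the same order, and a list of 8 fibroblast and mesenchyme genes to 1817 to 2142, 23623 to 48624 and 8165 to 13936. P-RPC replicate 1 stood apart with a summed signal of 130635 for 11 lens genes, against 1858 and 5373 in the other P-RPC replicates. In these bulk samples, fewer cells of a type and less RNA per cell cannot be told apart.

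RefSeq promoter windows (assembly GRCr8, 250 bases before to 50 after the start of a transcript) were found for 79 of the 114 channel genes and for 34 of those tested. Windows of 4 genes are printed 5′ to 3′ on the gene's strand, because these genes carry the largest rise (Scn7a), a rise in rESC-RPC2 of a gene on the same chromosome (Scn3a), a stepwise rise (Kcnd2) and a fall (Kcna2). Capitals mark GGGCGG, the SP1 box, on either strand.

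Scn7a: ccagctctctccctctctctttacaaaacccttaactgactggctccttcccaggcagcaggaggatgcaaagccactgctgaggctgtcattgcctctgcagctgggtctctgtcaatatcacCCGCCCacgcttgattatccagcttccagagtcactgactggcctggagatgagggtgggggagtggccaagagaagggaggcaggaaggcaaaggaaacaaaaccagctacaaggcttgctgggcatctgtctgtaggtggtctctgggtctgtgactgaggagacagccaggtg

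Scn3a: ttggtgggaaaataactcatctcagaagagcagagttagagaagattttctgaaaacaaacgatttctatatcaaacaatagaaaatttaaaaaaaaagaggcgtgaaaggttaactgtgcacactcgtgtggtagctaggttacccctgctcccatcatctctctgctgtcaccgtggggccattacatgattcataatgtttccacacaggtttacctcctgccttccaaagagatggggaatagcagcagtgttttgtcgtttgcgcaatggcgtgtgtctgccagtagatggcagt

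Kcnd2: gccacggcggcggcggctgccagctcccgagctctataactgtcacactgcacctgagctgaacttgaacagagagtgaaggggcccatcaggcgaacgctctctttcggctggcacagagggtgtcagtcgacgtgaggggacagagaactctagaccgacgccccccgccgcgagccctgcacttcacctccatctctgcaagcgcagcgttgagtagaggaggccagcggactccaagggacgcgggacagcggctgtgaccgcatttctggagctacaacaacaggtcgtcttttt

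Kcna2: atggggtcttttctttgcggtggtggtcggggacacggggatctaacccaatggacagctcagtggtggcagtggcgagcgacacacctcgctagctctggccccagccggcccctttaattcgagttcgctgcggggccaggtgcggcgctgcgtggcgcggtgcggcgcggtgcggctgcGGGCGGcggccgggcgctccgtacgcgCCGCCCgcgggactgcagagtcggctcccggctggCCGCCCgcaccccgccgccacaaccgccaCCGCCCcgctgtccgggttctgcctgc

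The Scn7a window lies at chr3:71846235-71846534 on the minus strand, with 2 CpG dinucleotides and 1 SP1 box. That of Scn3a lies at chr3:70666149-70666448, also on the minus strand, with 7 CpGs and no SP1 box. The Kcnd2 window is chr4:50742235-50742534 on the plus strand, with 23 CpGs and no box, and the Kcna2 window is chr2:197393280-197393579 on the plus strand, with 40 CpGs and 4 boxes. Of 41 windows of the tested channel genes, 23 (56.1%) held GGGCGG, against 63.1% of 9336 windows of all tested genes and 33.1% of all 33469 windows. The median number of CpGs was 13 in the tested channel windows and 21 in the windows of all tested genes. TAATCC, the core recognized by the photoreceptor factor CRX, was in 0 of the 41 windows and in 5.13% of the windows of all tested genes, both strands searched. Neither motif contains the other, and each was counted on its own.

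Testing required that 3 or more arrays reached the detection threshold, a signal of 122.9, which was the median of all values. This held for 44 of the 114 channel genes (38.6%) against 69.9% of all genes. On all 9 arrays 18 channel genes reached the threshold, and 63 did so on none. P-RPC had 32 channel genes at or above it on all 3 arrays, rESC-RPC1 26 and rESC-RPC2 35. Kcna5, Kcnh6, Kcnk1 and Kcnv2 entered the test through P-RPC alone and Scn1a through rESC-RPC2 alone, so that a difference of these genes was built into their selection. Of the other genes called below, Kcnj11 passed only with its P-RPC arrays and Kcnd1 only with its rESC-RPC1 arrays. Kcnj6 and Kcnip2 passed only with their rESC-RPC2 arrays. Their differences were thus also tied to the selection. A smaller share of channel genes than of genes at large thus passed the filter, and the counts that follow are over those that passed.

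Between rESC-RPC2 and rESC-RPC1 the channel genes differed mostly one way. Of the 44 tested, 17 (38.6%) were called higher in rESC-RPC2, at an adjusted p under 0.05 in limma and at least 2-fold, while 5.02% of the 9941 genes tested on the array were called higher. Only Scn7a was called lower (2.27% of the channel genes, 9.24% of all genes). Without the filter on low signals 5 of 114 channel genes were called lower, and the share of all genes under that setting is not given here. The median log2 difference was 0.43 over the channel genes and -0.03 over all genes. The genes higher in rESC-RPC2 were Kcna2, Kcna6, Kcnc1, Kcnc2, Kcnd2, Kcnd3, Kcns3, Kcnip1, Kcnj6, Kcnk2, Scn1a, Scn2a, Scn3a, Scn9a, Scn3b, Cacna1b and Cacna2d3. For Scn1a the direction was set by the filter, and Kcnj6 passed the filter only with its rESC-RPC2 arrays.

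Against P-RPC the direction depended on the kind of rESC-RPCs. In rESC-RPC1, 7 channel genes (15.9%) were called higher and 13 (29.5%) lower, against 12% and 9.5% of all genes. In rESC-RPC2, 13 (29.5%) were called higher and 7 (15.9%) lower, against 10.7% and 12.9% of all genes. From P-RPC the median log2 difference was -0.13 for rESC-RPC1 and 0.45 for rESC-RPC2, and those of all genes were -0.00 and -0.02. Both comparisons use the same 3 P-RPC arrays. The counts include the falls of Kcna5, Kcnh6, Kcnk1 and Kcnv2 in both and the rise of Scn1a in rESC-RPC2, whose direction was set by the filter. They also include the falls of Kcnj11, which passed the filter only with its P-RPC arrays. Among the rises, Kcnd1 passed it only with its rESC-RPC1 arrays, and Kcnj6 and Kcnip2 only with their rESC-RPC2 arrays. The neuronal list moved with these counts, with 12 of its 16 tested genes higher in rESC-RPC2 than in rESC-RPC1 and 0 lower, and its part in the result was not tested.

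**Figure D1:**
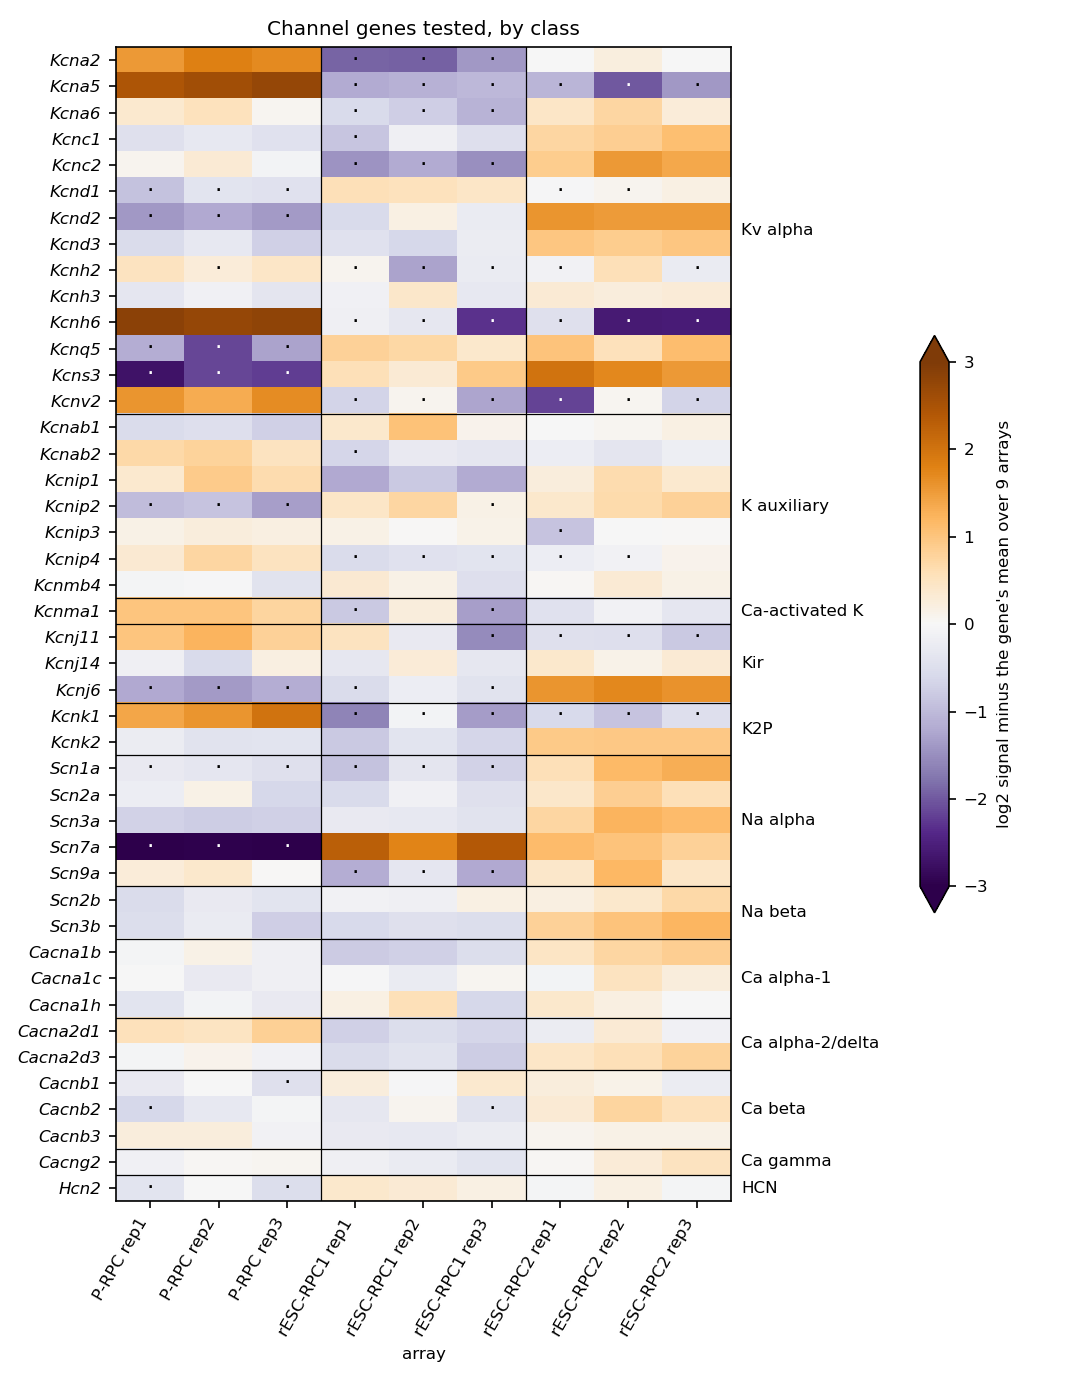
Each row is 1 of the 44 tested channel genes and each column 1 array. Colour gives the log2 signal minus the gene's own mean over 9 arrays, limited to 3 in either direction, and a dot marks a signal under the threshold of 122.9. The rESC-RPC2 columns are above the row mean for most sodium channel genes, and Kcna5 and Kcnh6 are above it on the P-RPC arrays alone.

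A group whose 3 arrays were all dimmer than the threshold was treated as having no measured level. The fold is then given as at least the ratio of the brighter group's mean to the threshold. The adjusted p beside a bound belongs to the fit on the signals as measured, those under the threshold included, and not to the bound. Such bounds applied to 14 of the 20 calls of rESC-RPC1 against P-RPC, to 12 of the 20 of rESC-RPC2 and to 5 of 18 between the rESC-RPCs. For 9, 3 and 3 of them, respectively, the bound was under 2-fold. In all 58 calls the arrays of the 2 groups did not overlap. With 3 arrays per group this adds little to a call at this p and fold, and its share over all called genes was not counted. With the mean of all probe sets of a gene in place of its brightest, calls of Kcna2, Kcna6, Kcnab1, Kcnab2, Kcnc2, Kcnip2, Kcnj11, Kcnk2, Kcnma1, Kcnq5 and Scn3b were lost in at least 1 comparison, and Cacnb1 and Cacng2 were newly called. Of 41 other probe sets of the tested channel genes, 4 reached the threshold on at least 3 arrays.

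Among the sodium channel alpha subunits, Scn7a, which encodes a sodium-sensing channel of glia and some neurons that is not opened by voltage in the usual way, set itself apart from the pore-forming channels of neurons. Its signals were 101, 104 and 75.7 in P-RPC, 3995, 2784 and 4234 in rESC-RPC1, and 1778, 1646 and 1424 in rESC-RPC2. The gene was thus dark in retina and bright on all 6 rESC-RPC arrays, with no overlap between rESC-RPC1 and rESC-RPC2. The rise over P-RPC was at least 29.4-fold in rESC-RPC1 (adjusted p = 1.06e-08) and at least 13.1-fold in rESC-RPC2 (5.1e-08). Between them Scn7a was lower in rESC-RPC2 by a log2 difference of -1.17 ± 0.18 (SE, adjusted p = 0.000399). The summed signals of the glial and mesenchymal lists were also higher in both kinds of rESC-RPCs than in P-RPC, and highest in rESC-RPC1. Single genes of the lists did not all move that way. Of 9 tested glial genes, 6 were called higher and 1 lower in rESC-RPC1 relative to P-RPC, and 3 higher and 3 lower in rESC-RPC2. Of 5 tested mesenchymal genes, 5 were higher and 0 lower in rESC-RPC1, and 4 higher and 1 lower in rESC-RPC2. The part of these lists in the level of Scn7a was not tested.

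Between the rESC-RPCs the other tested alpha subunits were higher in rESC-RPC2. Scn3a, the alpha subunit typical of the embryonic brain, gave 386, 368 and 378 in P-RPC, 516, 505 and 464 in rESC-RPC1, and 1039, 1461 and 1362 in rESC-RPC2. It was higher in rESC-RPC2 relative to P-RPC by 1.76 ± 0.13 (log2, adjusted p = 1.31e-06) and than in rESC-RPC1 by 1.37 ± 0.13 (1.94e-05). The log2 difference of rESC-RPC1 from P-RPC, 0.39 ± 0.13 (adjusted p = 0.0221), was short of the 2-fold threshold. Scn1a, mainly a channel of inhibitory interneurons, was under the threshold on all P-RPC and rESC-RPC1 arrays, at 76.6 to 118, and gave 214, 322 and 355 in rESC-RPC2. It was at least 2.36-fold higher there than in either of the others (adjusted p = 0.000406 against P-RPC and 0.000202 against rESC-RPC1). Scn1a was tested through rESC-RPC2 alone, so the direction was set by the filter.

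Scn2a, a channel of axon initial segments, gave 224, 281 and 165 in P-RPC, 171, 235 and 184 in rESC-RPC1, and 338, 462 and 383 in rESC-RPC2. Only the difference between the rESC-RPCs was called, at 1.01 ± 0.21 (log2, adjusted p = 0.00304), and it was under 2-fold without rESC-RPC1 replicate 1 (0.91), rESC-RPC1 replicate 3 (0.97) or rESC-RPC2 replicate 2 (0.89). Without P-RPC replicate 2 the rise of Scn2a over P-RPC, 0.84 with all arrays, was called as well (1.03). Scn9a, best known from peripheral sensory neurons, gave 180.4, 196 and 152 in P-RPC, fell to 66.6, 118 and 64.7 in rESC-RPC1, and stood at 197, 336 and 201 in rESC-RPC2. It was at least 1.42-fold lower in rESC-RPC1 relative to P-RPC (adjusted p = 0.00603), a call that was lost without rESC-RPC1 replicate 1 (log2 -1.0) or replicate 3 (-0.98), and at least 1.93-fold lower than in rESC-RPC2 (0.00122). In the RefSeq gene table Scn3a and Scn2a are neighbours on chromosome 3, and Scn1a, Scn9a and Scn7a follow each other in that order on the same chromosome. Scn9a and Scn7a thus lay side by side and were called in opposite directions in rESC-RPC1 against P-RPC.

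Of the beta subunits, Scn3b rose with the alpha subunits. Its signals were 988, 1173 and 833 in P-RPC, 925, 1014 and 979.5 in rESC-RPC1, and 2459.9, 2834 and 3246 in rESC-RPC2, so that P-RPC and rESC-RPC1 overlapped and rESC-RPC2 did not reach down to either. The log2 rise was 1.52 ± 0.14 over P-RPC (adjusted p = 5.62e-06) and 1.54 ± 0.14 over rESC-RPC1 (1.33e-05). A second probe set of Scn3b, above the threshold on all 9 arrays, had mean signals of 463.2, 253 and 639.2 in the same order of groups, with log2 differences from P-RPC of -0.86 for rESC-RPC1 and 0.48 for rESC-RPC2. With the mean of both probe sets the rise over P-RPC was just under 2-fold and not called (adjusted p = 0.000166). Scn2b was not called, and its log2 differences from P-RPC were 0.37 for rESC-RPC1 and 0.83 for rESC-RPC2. Scn4b reached the threshold on 1 array and was not tested, and the alpha subunits Scn8a, Scn4a, Scn10a and Scn11a reached it on none.

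**Figure D2:**
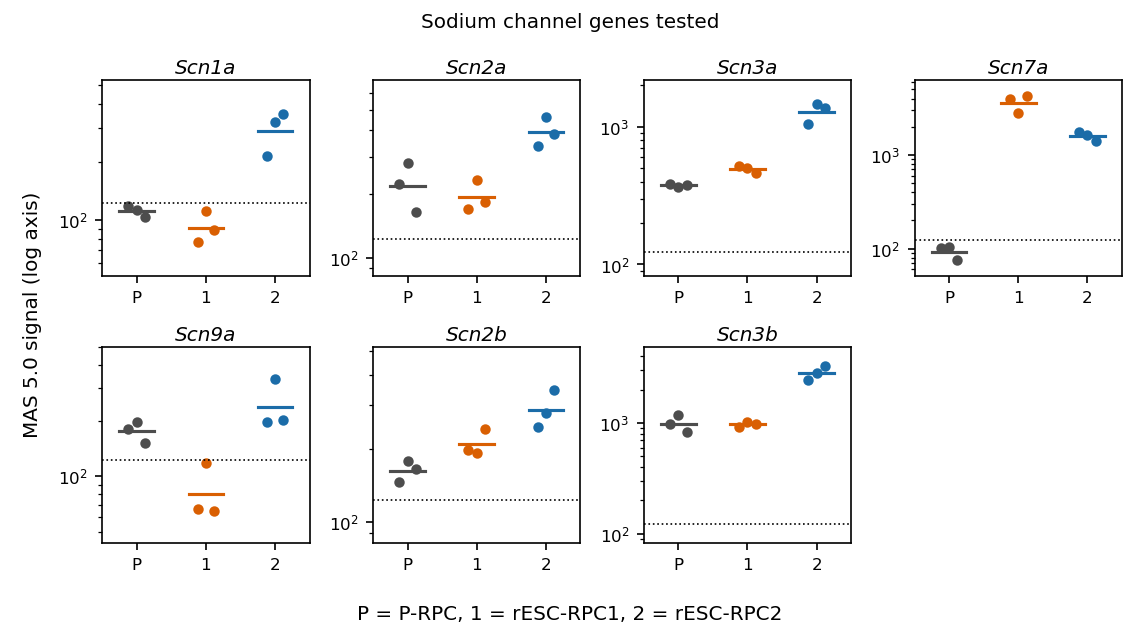
MAS 5.0 signals of the 7 tested sodium channel genes on a log axis, with 1 point per array, a bar for the mean log2 signal of the group and a dotted line at the detection threshold of 122.9. Scn7a is under the line in P-RPC and far above it elsewhere, and in the panels of Scn3a and Scn3b the rESC-RPC2 points lie above all others.

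Among the 14 tested alpha subunits of voltage-gated potassium channels, Kcnd2, Kcnq5 and the silent subunit Kcns3 were higher in both kinds of rESC-RPCs relative to P-RPC, and Kcna2, Kcna5, Kcnh6 and Kcnv2 were lower in both. In rESC-RPC1 4 (28.6%) were called higher than in P-RPC and 6 (42.9%) lower, where 12% and 9.5% of all genes were. In rESC-RPC2 6 (42.9%) were higher and 4 (28.6%) lower, beside 10.7% and 12.9% of all genes. In both comparisons the falls include Kcna5, Kcnh6 and Kcnv2, whose direction was set by the filter. The rises in rESC-RPC1 include Kcnd1, which passed the filter only with its rESC-RPC1 arrays. Kcns3 forms no channel alone and changes the currents of its partners. It gave 35.9, 52.9 and 50.5 in P-RPC, 345, 288 and 444 in rESC-RPC1, and 931, 766 and 675 in rESC-RPC2, 3 levels without overlap. Against P-RPC it rose at least 2.87-fold in rESC-RPC1 (adjusted p = 1.39e-06) and 6.38-fold or more in rESC-RPC2 (1.59e-07), and rESC-RPC2 was above rESC-RPC1 by 1.15 ± 0.21 on the log2 scale (0.00135).

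The Kcnd genes encode the A-type channels that delay firing from dendrites. Kcnd2 gave 95.8, 109 and 96.9 in P-RPC, 168, 284 and 213 in rESC-RPC1, and 745, 713 and 713 in rESC-RPC2. The rise was at least 1.76-fold in rESC-RPC1 (adjusted p = 0.000404; log2 0.91 and no longer called without rESC-RPC1 replicate 2) and at least 5.89-fold in rESC-RPC2 (5.15e-07), with a log2 difference of 1.74 ± 0.18 between them (3.63e-05). Kcnd3 was well above the threshold everywhere, at 559 to 746 in P-RPC, 594 to 778 in rESC-RPC1 and 1661 to 1800.4 in rESC-RPC2. Its log2 rise in rESC-RPC2 was 1.46 ± 0.13 over P-RPC (5.47e-06) and 1.36 ± 0.13 over rESC-RPC1 (2.11e-05), while rESC-RPC1 and P-RPC overlapped (0.09). Kcnd1, at 59.6 to 84.4 in P-RPC, was called higher in rESC-RPC1, where 148 to 164 gave a bound of at least 1.28-fold (0.00115), and the log2 difference was 0.92 without P-RPC replicate 1 and then not called. In rESC-RPC2 Kcnd1 gave 109, 117 and 124, 0.65 above P-RPC on the log2 scale (adjusted p = 0.0189) and short of 2-fold. Its difference between the rESC-RPCs, -0.43, was not called either (adjusted p = 0.109). Kcnd1 passed the filter only with its rESC-RPC1 arrays.

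The 2 tested Kcnc genes, whose channels let neurons fire fast, were highest in rESC-RPC2. Kcnc2 gave 201, 239 and 179 in P-RPC, 70.4, 84.0 and 68.0 in rESC-RPC1, and 353, 557 and 491 in rESC-RPC2. It was the only channel gene called lower in rESC-RPC1, by at least 1.67-fold (adjusted p = 0.00012), and higher in rESC-RPC2, by 1.16 ± 0.20 on the log2 scale (0.000533), than in P-RPC. Between the rESC-RPCs it differed by at least 3.73-fold (5.84e-06). With the mean over all its probe sets, 5 of which were dim, the log2 difference of rESC-RPC2 from P-RPC was -0.09 (adjusted p = 0.907). Kcnc1 gave 143, 159 and 145 in P-RPC, 108, 175 and 139.9 in rESC-RPC1, and 327, 355 and 415 in rESC-RPC2. Its log2 rise in rESC-RPC2 was 1.29 ± 0.19 over P-RPC (0.000191) and 1.39 ± 0.19 over rESC-RPC1 (0.000209), and the other groups overlapped.

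Of the Shaker-type genes, Kcna2, a channel of axons next to nodes, was brightest in retina. Its signals were 557, 681 and 625 in P-RPC, 51.5, 50.8 and 73.2 in rESC-RPC1, and 193, 226 and 192 in rESC-RPC2. It was lower by 5.04-fold or more in rESC-RPC1 (adjusted p = 1.63e-07) and lower by a log2 difference of -1.61 ± 0.18 in rESC-RPC2 (2.75e-05), which was at least 1.65-fold above rESC-RPC1 (2.81e-05). Kcna5, a delayed rectifier known from heart, smooth muscle, macrophages and glia, gave 625, 682 and 752 in P-RPC and 28.2 to 55.9 on the 6 rESC-RPC arrays. Both lay at least 5.57-fold lower (9.01e-07 in rESC-RPC1 and 4.27e-07 in rESC-RPC2). Kcna5 was tested through P-RPC alone, so the direction was set by the filter. A microglia and macrophage list of 10 genes had a lower summed signal in the rESC-RPCs as well. The sum was 1296 to 1510 in P-RPC and 162.1 to 304.2 in the rESC-RPCs. All 10 genes were under the threshold on every rESC-RPC array, and Aif1, Cd68, Itgam, Ptprc and Cx3cr1 on every P-RPC array too. Sums of other lists, such as those of endothelial, ganglion cell, red blood cell and photoreceptor genes, were also lower in the rESC-RPCs. The part of any of these lists in the fall of Kcna5 was not tested. A mural and smooth muscle list of 9 genes had a higher summed signal in the rESC-RPCs. The sum was 689.9 to 706.9 in P-RPC, 2425 to 10780 in rESC-RPC1 and 6808 to 12797 in rESC-RPC2. Of its 4 tested genes, 3 were called higher and 1 lower in each kind of rESC-RPCs relative to P-RPC. Rgs5 and Notch3 were under the threshold on every rESC-RPC array, and Myh11, Des and Myocd on all arrays. A list of 11 striated muscle genes summed to 458.9 to 547.2, 539.3 to 763.7 and 1149 to 1498. The summed signal of the glial list was higher in the rESC-RPCs as well, though 3 of its tested genes were called lower in rESC-RPC2. Kcna6, a further axonal subunit, was at least 1.70-fold lower in rESC-RPC1 relative to P-RPC (0.000917) and at least 1.89-fold lower than in rESC-RPC2 (0.000604), with signals of 78.9 to 112 against 173 to 242 and 199.9 to 279. Without rESC-RPC1 replicate 3 its difference from P-RPC was -0.98 and not called. Kcna5, Kcna1 and Kcna6 are neighbours on chromosome 4 in the RefSeq table, and Kcna1 reached the threshold on no array.

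Kcnv2, the silent subunit that photoreceptors use to shape their potassium current, gave 198, 166 and 209 in P-RPC and 14.7 to 69.5 on the rESC-RPC arrays. Both were lower by 1.55-fold or more (adjusted p = 0.00595 in rESC-RPC1 and 0.00255 in rESC-RPC2). Kcnv2 was tested through P-RPC alone, so the direction was set by the filter. Beside it the summed photoreceptor list was at least 22399 on the P-RPC arrays and at most 533.4 on the others. Kcnh6, an ERG-type channel, gave 324, 301 and 314 in P-RPC and 7.6 to 40.7 in the rESC-RPCs, a fall of at least 2.54-fold in each (0.00104 and 0.00021). This gene too was tested through P-RPC alone. Its relative Kcnh2, the channel that repolarizes heart muscle, was near the threshold at 41.7 to 151 and was not called. Kcnq5, one of the subunits of the M current that dampens excitability, rose from 33.9 to 67.5 in P-RPC to 198 to 265 in rESC-RPC1 and 221 to 326 in rESC-RPC2. The rise was at least 1.91-fold (7.65e-05) and at least 2.28-fold (3.1e-05). Kcnh3 was above the threshold on every array and was not called in any comparison.

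**Figure D3:**
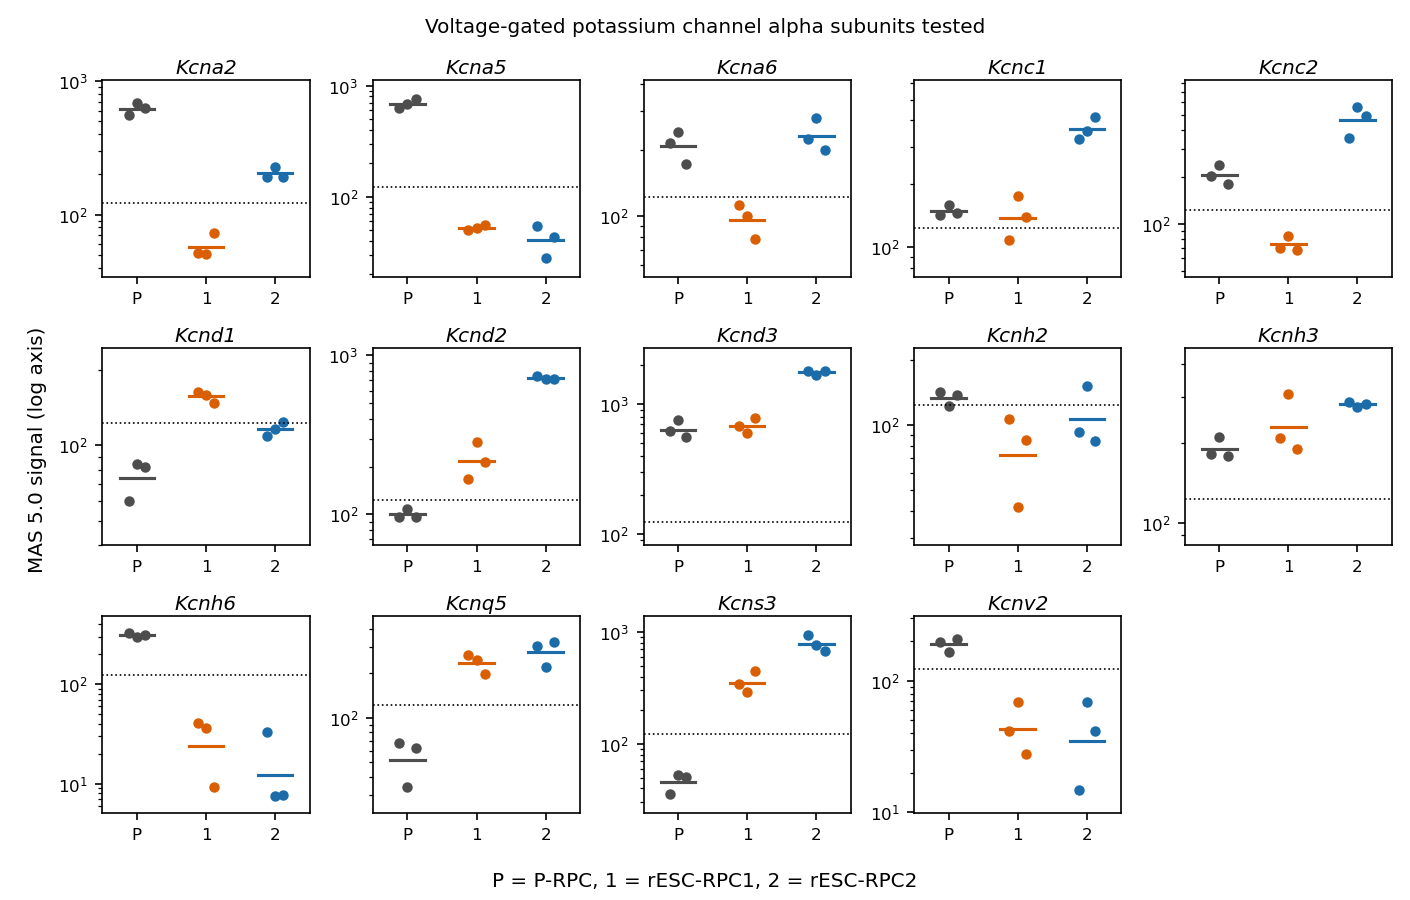
MAS 5.0 signals of the 14 tested alpha subunits of voltage-gated potassium channels on a log axis, with 1 point per array, a bar for the mean log2 signal of the group and a dotted line at the threshold of 122.9. Kcnc2 is the panel in which rESC-RPC1 lies under P-RPC and rESC-RPC2 above it, and Kcns3 and Kcnd2 rise stepwise from P-RPC to rESC-RPC2.

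Of the 7 tested auxiliary subunits of potassium channels, the KChIP genes, calcium sensors that bind Kcnd channels, did not move together. Kcnip1 gave 467, 680.3 and 574 in P-RPC, 159, 208 and 161 in rESC-RPC1, and 435, 572 and 467 in rESC-RPC2. It was lower in rESC-RPC1 relative to P-RPC by a log2 difference of -1.70 ± 0.17 (adjusted p = 1.62e-05) and rESC-RPC2 was above it by 1.48 ± 0.17 (7.65e-05), while P-RPC and rESC-RPC2 overlapped. Kcnip2 rose from 43.1 to 58.8 in P-RPC to 119 to 178 in rESC-RPC1 and 142 to 189 in rESC-RPC2, at least 1.18-fold (0.000344) and at least 1.35-fold (0.000135). With signals under the threshold set to it, the log2 rises were 0.26 (adjusted p = 0.159) and 0.44 (0.0263), and neither was called. Kcnip2 passed the filter only with its rESC-RPC2 arrays. Kcnip3 and Kcnip4 were not called. The log2 difference of Kcnip4 in rESC-RPC1 from P-RPC, -0.98, was called without P-RPC replicate 1 (-1.08) or rESC-RPC1 replicate 3 (-1.02). The Kcnab genes encode the cytoplasmic beta subunits of Shaker-type channels. Kcnab1 was called higher in rESC-RPC1 relative to P-RPC (1.09 ± 0.20, adjusted p = 0.000986; 0.83 and not called without rESC-RPC1 replicate 2). Kcnab2 was called lower there (-1.08 ± 0.16, 0.000258; -0.97 and not called without rESC-RPC1 replicate 1, -0.72 and adjusted p = 0.171 with the mean of its probe sets), and in rESC-RPC2 the log2 difference was -0.90 ± 0.16 (0.000757), short of 2-fold. Kcnmb4, the neuronal beta subunit of BK channels, lay between 368 and 655 on all arrays and was not called.

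The potassium channels outside the voltage-gated family were mostly dim. Of 15 inward rectifier genes 3 were tested, of 11 K2P genes 2, and of 5 calcium- or sodium-activated channel genes 1. Kcnj6, a G protein-gated rectifier of neurons, gave 60.8, 54.4 and 63.3 in P-RPC, 96.4, 124 and 106 in rESC-RPC1, and 427, 464 and 433 in rESC-RPC2. It passed the filter only with its rESC-RPC2 arrays. It was at least 3.59-fold higher in rESC-RPC2 relative to P-RPC (adjusted p = 3.45e-07), and 2.03 ± 0.17 higher on the log2 scale than in rESC-RPC1 (1.09e-05). Kcnk2, a mechanosensitive K2P channel, gave 219.9, 194 and 196, then 148, 198 and 165, then 492, 498 and 499 in the same order of groups, a log2 rise in rESC-RPC2 of 1.29 ± 0.14 over P-RPC (2.02e-05) and 1.56 ± 0.14 over rESC-RPC1 (1.46e-05). Both were highest in rESC-RPC2 on every array.

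Kcnj14, the third inward rectifier tested, was not called. Lower in the rESC-RPCs were Kcnj11, Kcnk1 and Kcnma1. Kcnj11, the pore of ATP-sensitive channels, gave 328, 384 and 285 in P-RPC, 231, 135 and 56.5 in rESC-RPC1, and 119, 116 and 93.3 in rESC-RPC2. It passed the filter only with its P-RPC arrays. The fall in rESC-RPC2 was at least 2.68-fold (adjusted p = 0.00583). That in rESC-RPC1, -1.45 ± 0.41 on the log2 scale (0.0107), was -0.90 and not called without rESC-RPC1 replicate 3, and by the methods' t-test, at the 2-fold threshold, its adjusted p was 0.119. Kcnk1, a weakly rectifying leak channel, gave 179.5 to 273 in P-RPC and 22.3 to 64.4 in the rESC-RPCs, at least 1.75-fold lower in each (0.000258 and 0.000611). Kcnk1 was tested through P-RPC alone, so the direction was set by the filter. Kcnma1, the pore of the BK channel, gave 426, 426 and 357 in P-RPC, 121, 250.0 and 85.1 in rESC-RPC1, and 158, 196 and 167 in rESC-RPC2, log2 differences of -1.55 ± 0.32 (0.0018) and -1.21 ± 0.32 (0.00707). The rESC-RPC1 arrays spread most for Kcnj11 and Kcnma1, and replicate 3 was the lowest for both. Kcnj10 and Kcnj13, the rectifiers of Muller glia and of pigment epithelium, reached the threshold on no array, with highest signals of 51.1 and 107.6.

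**Figure D4:**
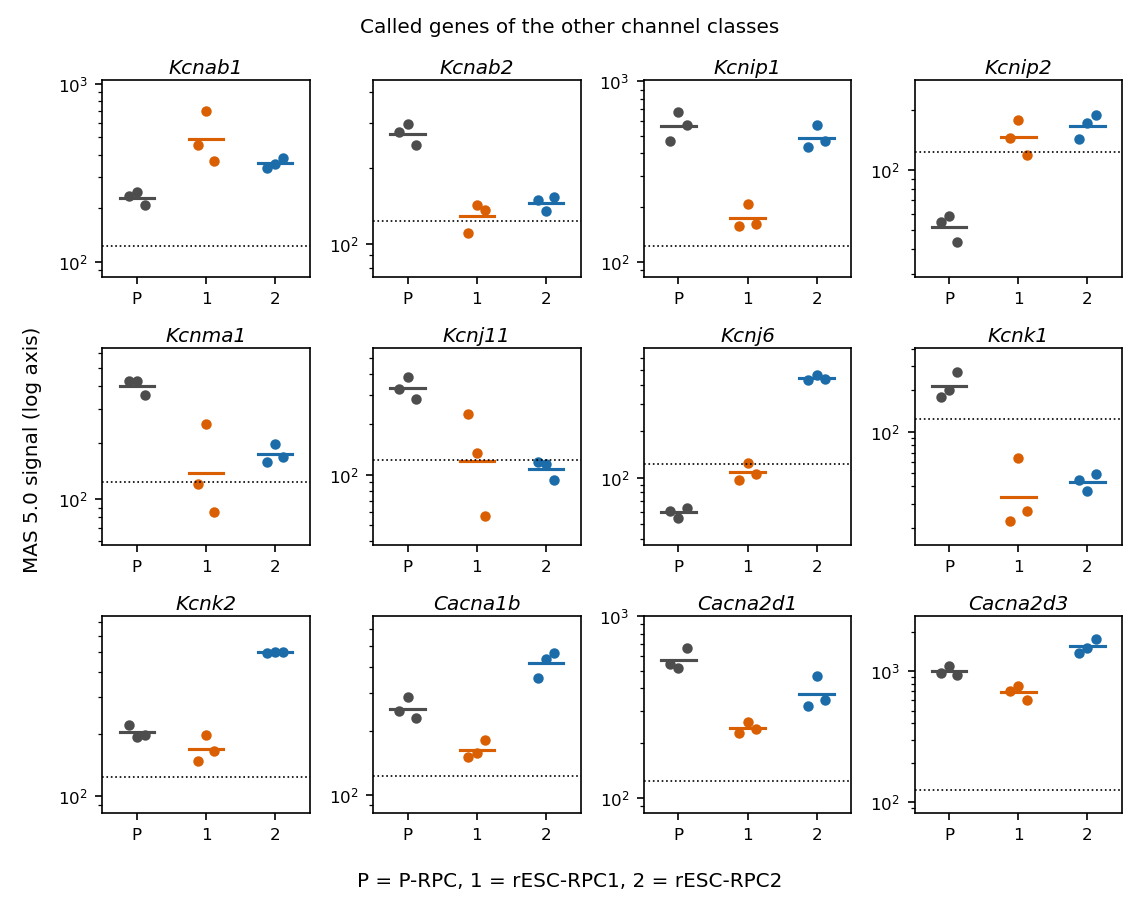
MAS 5.0 signals on a log axis of the 12 genes outside the families already plotted that were called in at least 1 comparison, drawn as in the plots of the sodium and potassium channel genes. Kcnip1 is low in rESC-RPC1 alone, Kcnj6 and Kcnk2 are high in rESC-RPC2 alone, and Kcnk1 is above the dotted threshold line in P-RPC alone.

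Of 3 tested pore-forming alpha-1 subunits of calcium channels, 2 alpha-2/delta, 3 beta and 1 gamma subunit, 3 genes were called, each in 1 comparison. These were Cacna2d1 in rESC-RPC1 against P-RPC, and Cacna1b and Cacna2d3 between the rESC-RPCs. Of all genes, 21.5% were called in rESC-RPC1 against P-RPC, 23.6% in rESC-RPC2 against P-RPC and 14.3% between the rESC-RPCs. So few calcium channel genes cannot be set apart from these shares. Cacna1b, the N-type channel of nerve terminals, gave 249, 288 and 231 in P-RPC, 150.4, 157 and 181 in rESC-RPC1, and 356, 434 and 464 in rESC-RPC2. The log2 differences from P-RPC were -0.65 ± 0.15 (adjusted p = 0.00382) and 0.70 ± 0.15 (0.00226), both short of 2-fold, and rESC-RPC2 was above rESC-RPC1 by 1.36 ± 0.15 (5.87e-05). Cacna2d3 had the same order, with 942 to 1101, 606 to 768 and 1382 to 1768, and a log2 difference between the rESC-RPCs of 1.17 ± 0.12 (3.99e-05). Cacna2d1, which carries alpha-1 subunits to the membrane and binds gabapentin, gave 545, 519 and 668 in P-RPC, 228, 261 and 239.7 in rESC-RPC1, and 321, 466 and 343 in rESC-RPC2. It was lower in rESC-RPC1 by -1.24 ± 0.16 (8.14e-05), and the log2 difference was -0.63 ± 0.16 (0.00596) in rESC-RPC2. The alpha-2/delta genes were therefore both lowest in rESC-RPC1, and they differed in which of the other groups was higher.

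Cacna1c, the L-type channel of heart and many neurons, lay between 193 and 330.1 on all arrays, and Cacna1h, a T-type channel, between 229.6 and 528. Neither was called, nor were Cacnb1, Cacnb2 and Cacnb3, the cytoplasmic beta subunits, nor Cacng2, a TARP that escorts AMPA receptors. With the mean of all probe sets Cacnb1 was called higher than P-RPC in rESC-RPC1 (1.08, adjusted p = 0.036) and rESC-RPC2 (1.16, 0.0249). A second probe set of Cacng2, at or above the threshold on 6 arrays, had mean signals of 162, 83.6 and 229.8 in the same order of groups and a log2 difference of 1.47 between the rESC-RPCs, and with the mean of its probe sets that difference was called (1.0, adjusted p = 0.000707). For Cacnb2 rESC-RPC2 minus P-RPC was 0.87 ± 0.21 on the log2 scale (adjusted p = 0.00453). Cacna1f, the photoreceptor L-type channel, reached the threshold on no array, with a highest signal of 59.3 in P-RPC, and Cacna1a and Cacna1g did not reach it either. Cacna1d, the other L-type channel of the retina, reached it on 2 arrays, at 123.1 in P-RPC replicate 1 and 127.2 in rESC-RPC2 replicate 2. Among the HCN genes, Hcn2 gave 115, 149 and 106 in P-RPC, 198, 190.0 and 172 in rESC-RPC1, and 144, 171 and 144 in rESC-RPC2. Its log2 difference in rESC-RPC1, 0.61 ± 0.18 (adjusted p = 0.0151), was short of 2-fold, and Hcn3 and Hcn4 were under the threshold on every array.

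**Figure D5:**
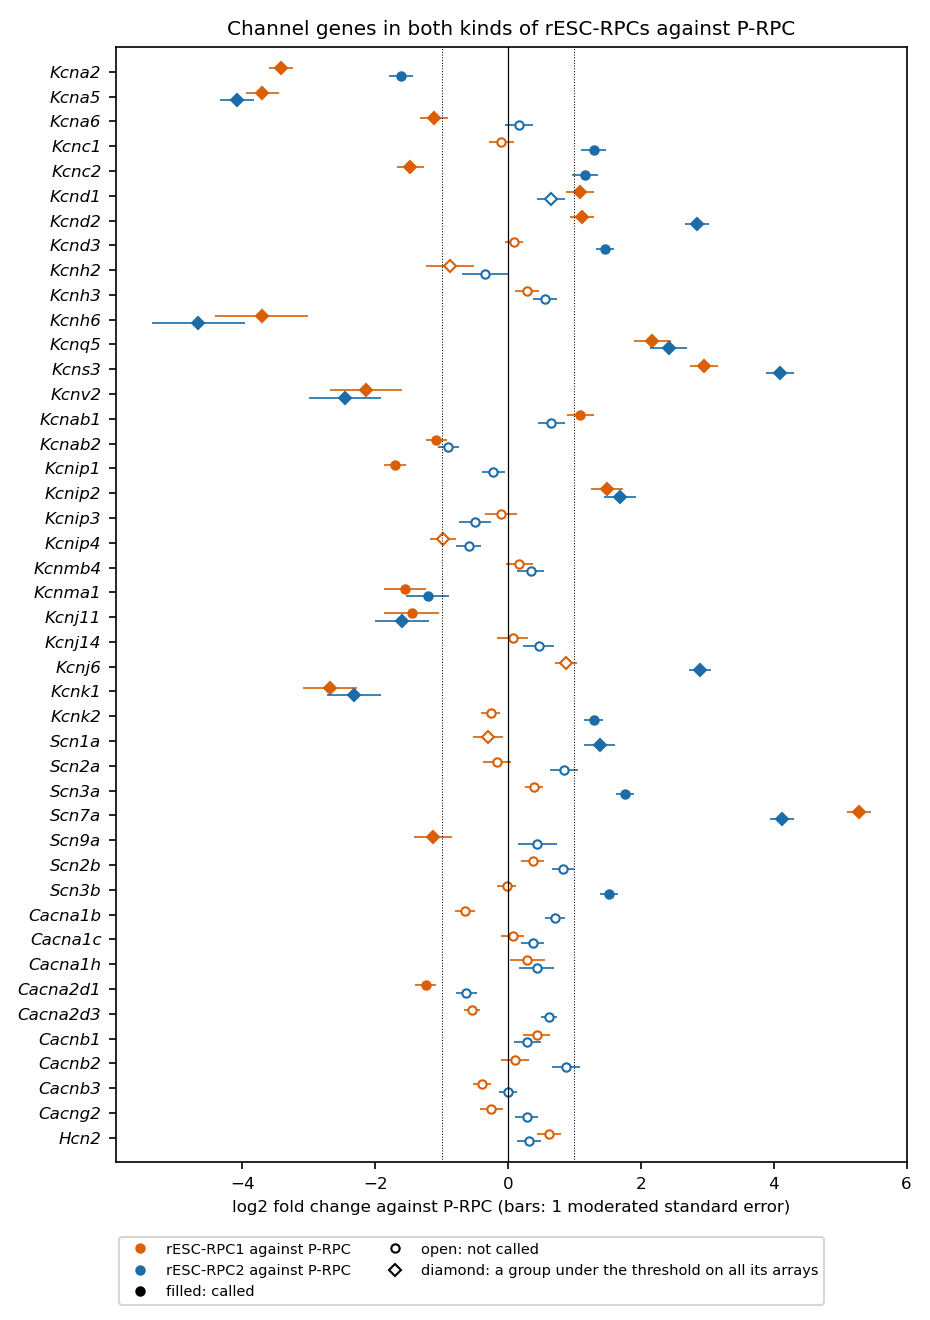
Log2 fold change of the 44 tested channel genes against P-RPC, orange for rESC-RPC1 and blue for rESC-RPC2, with bars of 1 moderated standard error and dotted lines at 2-fold. Filled symbols were called, and diamonds are measured differences in which 1 group was dimmer than the threshold on all its arrays, so that the fold is only bounded. Scn7a, Kcns3 and Kcnd2 have called symbols to the right of 0 in both, Kcna5 and Kcnh6 to the left in both, and Kcnc2 has called symbols on both sides of 0.

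The patterns over the 3 comparisons sort the 44 genes into 12 sets, 1 of them the 14 genes with no call. Higher than P-RPC in both kinds of rESC-RPCs were Kcnd2, Kcns3, Scn7a, Kcnip2 and Kcnq5, and lower in both were Kcna2, Kcna5, Kcnh6, Kcnj11, Kcnk1, Kcnma1 and Kcnv2. A further 7 genes, Kcnc1, Kcnd3, Kcnj6, Kcnk2, Scn1a, Scn3a and Scn3b, were called higher in rESC-RPC2 than in each of the other groups and not called between those. Kcna6, Kcnip1 and Scn9a were called lower in rESC-RPC1 than in each of the others and not called between those, and Kcna2 and Kcnc2 were also lower there than in each other group. Against P-RPC alone, Kcnab1 and Kcnd1 were called higher in rESC-RPC1, and Cacna2d1 and Kcnab2 lower. Cacna1b, Cacna2d3 and Scn2a were called between the rESC-RPCs alone. The order of the groups by level was thus not the same for all channel genes. For Kcna5, Kcnh6, Kcnk1, Kcnv2 and Scn1a the direction in these sets was set by the filter. Kcnj11, Kcnd1, Kcnj6 and Kcnip2 passed the filter only with the arrays of 1 group in which they were high.

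A further 7 channel genes reached the threshold on 1 or 2 arrays and were not tested. Apart from Cacna1d and Scn4b these were Kcna4, a transient potassium channel, with 156.5 and 190.0 on rESC-RPC2 arrays, Kcnh1, with 129 and 219 on rESC-RPC1 arrays, Kcnk5, with 179.5 in P-RPC replicate 1, Kcnn1 and Kcnt1. The 63 channel genes under the threshold on every array included the potassium channel genes Kcna1, Kcna3, Kcnb2, Kcnc4, Kcnq1 and Kcnq3, all Kcne subunits on the array, 12 of the 15 inward rectifiers with Kcnj8 among them, and the calcium channel genes Cacna1e, Cacna1i and Cacna1s. Every gamma subunit gene but Cacng2 was dim in the same way. These genes lay under the median of all values, which does not show that they were silent.

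Partner genes that place channels in the membrane, bind them or maintain their ion gradients were read from a list of 58, of which 49 were on the array and 34 were tested. Between the rESC-RPCs 12 (35.3%) were called higher in rESC-RPC2 and 2 (5.88%) lower, against 5.02% and 9.24% of all genes, with a median log2 difference of 0.77. Against P-RPC 4 (11.8%) were higher and 8 (23.5%) lower in rESC-RPC1, where all genes gave 12% and 9.5%. In rESC-RPC2 7 (20.6%) were higher and 3 (8.82%) lower, where all genes gave 10.7% and 12.9%, and the medians were -0.26 and 0.25. The counts include Cntn1 and Slc8a3, lower in both, which reached the threshold on P-RPC arrays alone. They also include Akap6, higher in rESC-RPC2 than in each other group, which reached it on rESC-RPC2 arrays alone. The direction of these genes was set by the filter, and Dpp10 passed it only with its rESC-RPC2 arrays. Cntnap2, which clusters Kcna channels beside nodes, gave 304.6, 337 and 288 in P-RPC, 435, 461 and 473 in rESC-RPC1, and 1637, 2059 and 2108 in rESC-RPC2. It was higher in rESC-RPC2 by 2.64 ± 0.12 over P-RPC (log2, adjusted p = 6.17e-08) and 2.08 ± 0.12 over rESC-RPC1 (1.57e-06), unlike Kcna2, which was lower in rESC-RPC2 relative to P-RPC. Of the transmembrane partners of Kcnd channels, Dpp10 was at least 2.55-fold higher in rESC-RPC2 relative to P-RPC (1.79e-06), with signals of 289 to 356 against 18.9 to 31.0. Dpp6 was lower in rESC-RPC1 relative to P-RPC by -1.82 ± 0.19 (1.76e-05), with 226 to 405 against 952 to 1074.

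Gem and Rem2, small GTPases that bind calcium channel beta subunits and reduce calcium current, were lower in different groups. Gem gave 617 to 767 in P-RPC, 405 to 557 in rESC-RPC1 and 42.4 to 53.9 in rESC-RPC2, at least 5.71-fold lower than P-RPC (adjusted p = 4.78e-08) and at least 3.99-fold lower than rESC-RPC1 (9.44e-07). Rem2 gave 814 to 1113 in P-RPC and 179 to 182 in rESC-RPC1, a log2 difference of -2.42 ± 0.14 (3.63e-07), and 496 to 664 in rESC-RPC2. The beta subunits of the sodium pump were also unequal. Atp1b1 rose by 1.42 ± 0.12 in rESC-RPC1 (4.43e-06) and by 2.36 ± 0.12 in rESC-RPC2 (1.44e-07) against P-RPC, and Atp1b3 by 1.10 ± 0.09 in rESC-RPC1 (2.75e-06). Atp1b2 gave 979 to 1045 in P-RPC, 1525 to 2958 in rESC-RPC1 and 391 to 719 in rESC-RPC2. It was higher in rESC-RPC1 by 1.14 ± 0.25 (0.0025), and rESC-RPC2 was below rESC-RPC1 by a log2 difference of -2.09 ± 0.25 (8.21e-05). Its difference of rESC-RPC2 from P-RPC, -0.95 ± 0.25 (0.00686), was short of 2-fold. Slc12a5, the chloride extruder of mature neurons, was higher in rESC-RPC2 than in rESC-RPC1 by 1.37 ± 0.11 (7.91e-06), and Atp2b3, a neuronal calcium pump, by at least 3.49-fold (7.33e-06).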

How the data were processed

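The 9 arrays, 1 per sample, hold RNA of 3 samples for each kind of cell (P-RPC, rESC-RPC1, rESC-RPC2), and the samples were grouped by GEO's labels, which call the replicates biological. The deposited intensities are linear signals per probe set, made by the authors with MAS5 (version not stated). Their mean after trimming 2% per end was 500.2 on every array, with medians from 113 to 128, so no further scaling was applied. No scan date or batch is given in the sources used here.

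Of 31099 probe sets 57 controls were left out, and 20826 of the rest carried 1 gene symbol, 436 several and 9780 none. Signals below 1 were raised to 1 before taking log2 values. Each gene was read from its probe set of highest mean log2 signal (42 of the 114 channel genes have more than 1 probe set), and 9941 of 14217 genes passed the filter of 3 arrays at or above a signal of 122.9, the 50th percentile of the table. Levels were not compared between genes, since probe sets differ in brightness. The number of arrays limits the precision.

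Group means were fitted over all 9 arrays with limma 3.58.1 in R 4.3.3 (eBayes with a variance trend), with Benjamini-Hochberg adjustment over the 9941 genes. A gene was called at an adjusted p under 0.05 and at least 2-fold. Errors are moderated standard errors. The fit was tested on simulated data. Where a group was under the threshold on all 3 arrays, the fold was computed against the threshold as a bound, while the adjusted p stayed that of the fit. Promoter windows and gene neighbours came from RefSeq tables (GRCr8), in which the gene IDs of all 114 channel genes were found, and motifs were searched with Python 3.11.15. The array's own probes have no coordinates here.

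The members, classes, lists and alternatives were chosen with earlier results of these data known. By rule, the text names for each comparison up to 12 called genes with the largest rise and 12 with the largest fall, every called member of a class with at most 5 tested, channels known from retina, glia or excitable membranes whatever their values, and up to 4 called partner genes. Genes not called that are named beside them, and a few partner genes' values in a second comparison, complete the classes. The alternatives were other scalings, filters, floors, probe set rules, variance models and tests, the replicate number as a block, and leaving out each array.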

Additional observations from a re-analysis of the deposited data

Results flagged for a closer look

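Kcnc2 moved in opposite directions against the same P-RPC arrays: it was under P-RPC on all 3 rESC-RPC1 arrays and above it on all 3 rESC-RPC2 arrays. Both differences from P-RPC were called, at least 1.67-fold lower in rESC-RPC1 (limma, adjusted p = 0.00012) and 1.16 ± 0.20 higher on the log2 scale in rESC-RPC2 (0.000533). The difference between rESC-RPC2 and rESC-RPC1 was 2.64 ± 0.20 (adjusted p = 5.84e-06). With the mean of all probe sets it was 0.80 (adjusted p = 0.297) and was not called. The rESC-RPC1 signals, 68.0 to 84.0, were under the detection threshold, so the fold is bounded at 3.73 or more.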

How the results depend on the processing

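Of the 57 calls that the rule for named genes covers, all 57 were kept with quantile normalization, with median centring, without the filter, with signals under 32 set to 32, without the variance trend and with the replicate number as a block. With the stricter filter 44 of the 57 could be fitted and 44 were kept. With signals under the threshold set to it 42 were kept. Raising low signals to the threshold shrank the folds, and 14 of the 15 lost calls kept an adjusted p under 0.05 and fell under 2-fold (Kcnk1 in rESC-RPC1 went from -2.68 to -0.81). With the mean of all probe sets 38 were kept, and 4 of the 41 other probe sets reached the threshold on at least 3 arrays. Kcnc2 in rESC-RPC2 against P-RPC then changed sign to -0.09 (adjusted p = 0.907). The methods' t-test kept 56 without and 55 with adjustment, losing Kcnj11 and Kcnma1 (adjusted p = 0.0568) in rESC-RPC1. Leaving out 1 array kept 53 to 57.

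Without the filter all 114 channel genes of 14217 genes were fitted. Shares of all genes called under the other settings are not given here, so these counts cannot be set against a background. The numbers of channel genes called higher in rESC-RPC1 relative to P-RPC (7) were 12 without the filter and 3 with signals under the threshold set to it. Those called lower (13) were 8 with that floor and 8 with the mean of all probe sets. In rESC-RPC2 against P-RPC, 21 were called higher with no minimum fold (13 otherwise), and 13 without the filter and 4 with the mean of all probe sets were called lower (7 otherwise). Between the rESC-RPCs, 5 were called lower without the filter (1 otherwise), and 1 to 2 when 1 array was left out. The second was Kcnh6, without rESC-RPC1 replicate 3 (-1.64). Kcnh2 was called lower in rESC-RPC1 relative to P-RPC without rESC-RPC1 replicate 1 (-1.16).

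The replicate block changed no call of a channel gene: 7 and 13, 13 and 7, and 17 and 1 were called higher and lower in the 3 comparisons. Whether the numbers pair the samples is not known. Deviations of arrays of the same number correlated at -0.04 to 0.28, over 0.1 for 1 of 9 pairs. Those of different numbers correlated at -0.31 to 0.31, and with 3 arrays per group this cannot decide whether a batch was shared. No bound under the detection threshold can be ordered. The threshold is the median of all values, so a gene under it on all arrays was dim and not shown to be absent.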
